A study of Mus musculus with 12 samples.

Results

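The respiratory chain genes of the nucleus were followed in 12 mammary tumors of mice treated with a control antibody, an antibody to PD-1, or doxorubicin together with either antibody. They were taken by symbol: every gene starting with Nduf, Uqcr, Atp5 or Cox followed by a digit from 4 to 8, the genes Sdha, Sdhb, Sdhc and Sdhd, and the cytochromes Cycs and Cyc1. This gave 95 of the 21960 genes listed for each tumor. All 95 are annotated as protein coding, and they lie on 19 chromosomes of the mouse assembly GRCm38.

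Complexes I and II pass electrons from NADH and succinate to ubiquinone, complex III hands them to cytochrome c, and complex IV gives them to oxygen. Complexes I, III and IV pump protons across the inner mitochondrial membrane, and complex V, the ATP synthase, lets them flow back to make ATP. Most subunits are encoded in the nucleus, while a few, including the catalytic core of complex IV, come from mitochondrial DNA. No mitochondrially encoded gene is listed in these data, so the nuclear share of each complex alone was measured.

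The tumors arose in female MMTV-PyMT mice on a C57BL/6 background, in which the viral oncogene is driven by the mammary tumor virus promoter and so acts mainly in mammary epithelium. The study examined chemotherapy and PD-1 blockade, alone and combined. Bulk RNA was sequenced from 3 whole tumors in each of 4 groups. IgG1 and anti-PD-1 mice began treatment at a first tumor of 0.6 cm, with 20 mg/kg of control or PD-1 antibody and then 10 mg/kg per dose up to day 18. DOX/IgG1 and DOX/anti-PD-1 mice began at 1 cm and received 5 mg/kg doxorubicin weekly for 5 weeks, each followed a day later by 10 mg/kg of antibody. Doxorubicin, tumor size at the start and the antibody schedule therefore differ together and cannot be told apart. All 10 epithelial markers examined were present, with summed levels of 2317 to 4059 TPM and Epcam as the most abundant at a mean of 729 TPM.

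Values are in TPM, a level corrected for transcript length. The listed genes of a tumor summed to 609418 to 725506 TPM, and the respiratory chain genes held 0.929 to 1.37% of that sum. Read counts are not given, and sequencing depth is therefore not known.

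By function, 45 of the 95 genes belong to complex I (36 structural subunits and 9 assembly factors), 4 to complex II, 9 to complex III, 20 to complex IV, 16 to complex V and 1, Cycs, to the mobile carrier cytochrome c. Complex IV comprises 11 broadly expressed subunits and 9 isoforms or related proteins. Complex V comprises 15 subunits and coupling factor B (Atp5s). Ndufa4, named after complex I, was placed with complex IV, to which its protein is now assigned. Of all 95 genes, 84 were above 0 in every tumor, 10 were listed at 0 in some tumors and Cox8c was listed at 0 in all 12.

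Most of these genes were abundant. Averaged over the 12 tumors, 24 stood at 100 TPM or more, 59 between 10 and 100 TPM and 12 below 10 TPM. Thus 83 of 95 reached 10 TPM, against 42.8% of all listed genes. The most abundant was Atp5b, the catalytic beta subunit of the ATP synthase, at 739 TPM, and 62 of all listed genes were higher.

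The complexes differed more in the range from lowest to highest subunit than in their middle. Median subunit levels were 59.0 TPM in complex I, 60.7 in complex II, 72.3 in complex III, 84.6 in complex IV and 100.2 in complex V. Although subunits of 1 complex are assembled in fixed numbers, their transcripts differed 40.5-fold in complex I, from Ndufa11 at 5.61 to Ndufc2 at 227 TPM. In complex V they differed 89.9-fold, from Atp5k, a small membrane subunit, at 8.22 TPM to Atp5b. The range was 17.5-fold in complex IV, from Cox5a at 26.1 to Cox6c at 457 TPM. The range was narrower in complexes II and III. A range tends to widen with the number of genes, and these 2 hold 4 and 9 subunits, against 36, 11 and 15 in complexes I, IV and V. Levels differed 5.96-fold between the iron-sulfur protein Sdhb (33.1 TPM) and the flavoprotein Sdha (197 TPM), and 5.43-fold between cytochrome c1 (Cyc1, 33.5 TPM) and Uqcrb (182 TPM).

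**Figure D1:**
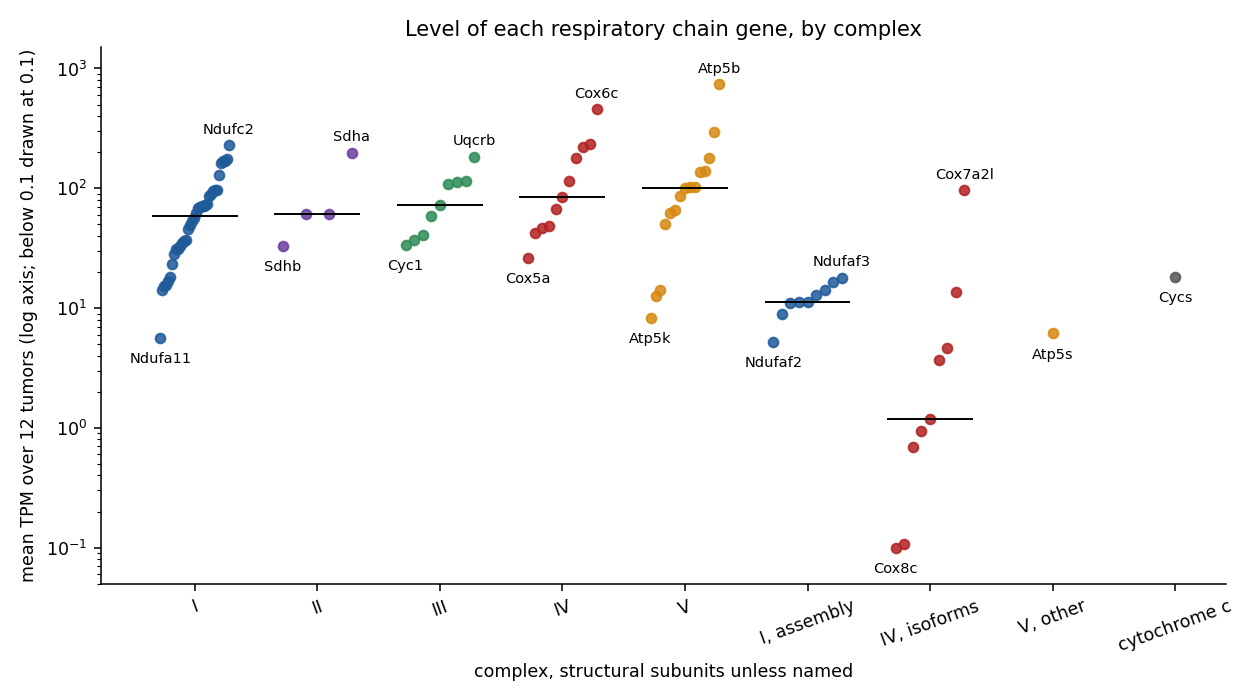
Mean level of each respiratory chain gene over the 12 tumors, in TPM on a log axis, with 1 point per gene, grouped by complex and with assembly factors and isoforms drawn apart. Atp5b at 739 TPM and Cox6c at 457 TPM are the highest points, and the points below 10 TPM are mostly complex IV isoforms and assembly factors.

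The redox core of complex I was expressed throughout. Among the proteins that take electrons from NADH, Ndufs1 ranged over the 12 tumors from 80.6 to 329 TPM, Ndufv1 from 56.6 to 128 TPM and Ndufv2 from 115 to 239 TPM. In the module that reduces ubiquinone, Ndufs3 ranged from 46.3 to 99.4 TPM and Ndufs7 from 49.3 to 101 TPM. Ndufs8, which carries iron-sulfur clusters of the same module, was the lowest of those named, at 3.66 to 24.2 TPM. In complex II, the membrane anchors Sdhc and Sdhd spanned 34.3 to 111 and 43.2 to 74.0 TPM. The Rieske iron-sulfur protein of complex III, Uqcrfs1, spanned 42.6 to 105 TPM. In the soluble head of complex V, Atp5a1 stood at 238 to 419 TPM, Atp5c1 at 102 to 181 TPM, Atp5d at 36.8 to 91.9 TPM and Atp5e at 59.6 to 136 TPM.

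Complexes I and V held the largest shares of these transcripts in every tumor. Of the summed TPM of all 75 structural subunits, complex I held 32.9 to 39.2%, complex II 3.94 to 6.80%, complex III 8.74 to 13.2%, complex IV 14.6 to 24.7% and complex V 26.6 to 31.3%. Complex IV thus varied most in percentage points. Its summed level was 1858, 1390.0 and 1225 TPM with IgG1, 1596, 1964 and 2119 with anti-PD-1, 1458, 1222 and 1278 with DOX/IgG1, and 1734, 1556 and 849 with DOX/anti-PD-1. All 3 anti-PD-1 tumors lay above all 3 DOX/IgG1 tumors in this sum, while the other pairs of groups overlapped. Cox6c, the most abundant of the 11 subunits, weighs most in the sum, with a mean of 457 TPM. In the mean log2(TPM + 1) of the 11, anti-PD-1 replicate 1 lay at 6.36, below the 6.48, 6.40 and 6.39 of DOX/IgG1. DOX/anti-PD-1 replicate 3 had the lowest sum, the lowest complex IV share, 14.6%, and the highest shares of complexes I and III, 39.2% and 13.2%.

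Complex I summed to 2651, 2354 and 2322 TPM with IgG1, 2301, 2699.7 and 2912 with anti-PD-1, 2734, 2298 and 2187 with DOX/IgG1, and 2928, 2659.7 and 2276 with DOX/anti-PD-1. Complex II summed to 390.4, 317 and 310.2 TPM with IgG1, 357, 324 and 363 with anti-PD-1, 281, 402 and 435 with DOX/IgG1, and 378, 419 and 242 with DOX/anti-PD-1. In both, the lowest and the highest sums of the 12 were doxorubicin tumors, and all 4 groups overlapped. Complex III summed to 763, 797 and 557 TPM with IgG1, 722, 791 and 905 with anti-PD-1, 735, 655 and 614 with DOX/IgG1, and 946, 849 and 765 with DOX/anti-PD-1. All 3 DOX/anti-PD-1 tumors were above all 3 DOX/IgG1 tumors in the sum of complex III. In the mean log2(TPM + 1) of its subunits the 2 groups overlapped, with DOX/anti-PD-1 replicate 3 at 6.091 and DOX/IgG1 replicate 1 at 6.094. Complex V summed to 2162, 2064 and 1958 TPM with IgG1, 2018, 2172 and 2284 with anti-PD-1, 1916, 2042 and 1883 with DOX/IgG1, and 2733, 2258 and 1673 with DOX/anti-PD-1. Here the DOX/anti-PD-1 group held both the highest and the lowest sum of the 12 tumors.

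**Figure D2:**
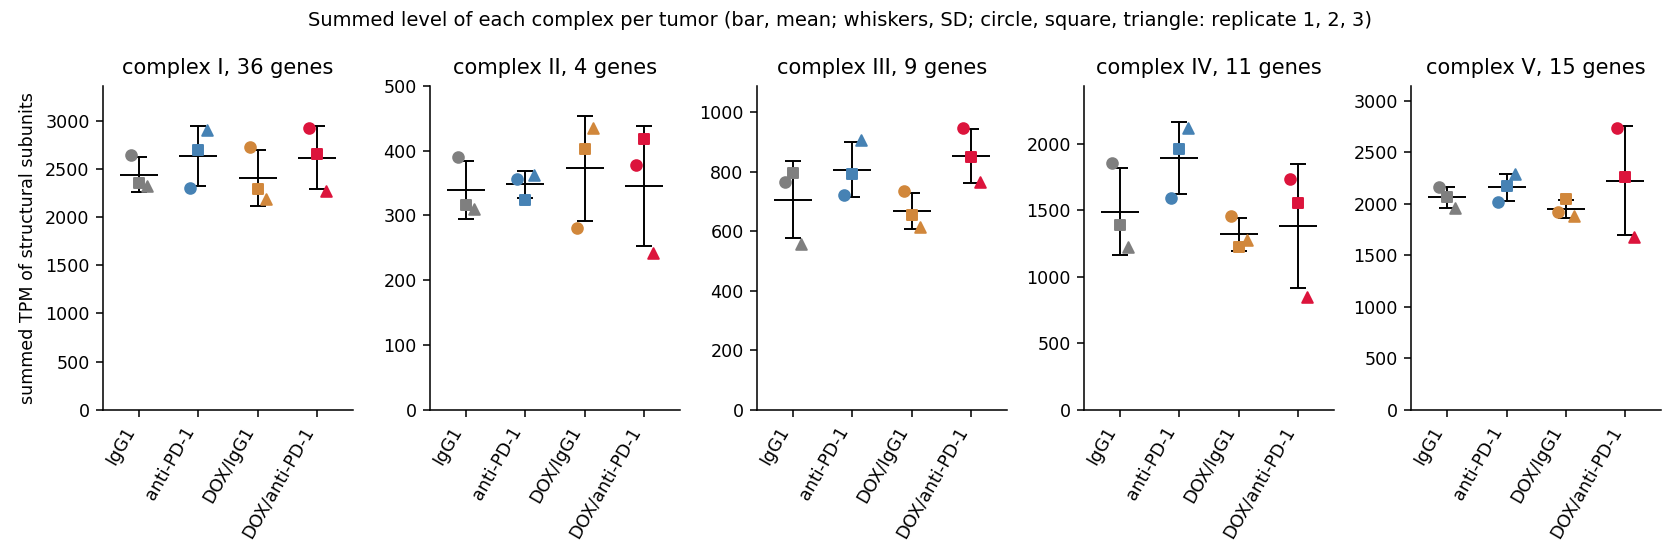
Summed TPM of the structural subunits of each complex in every tumor, with a bar at the group mean and whiskers of 1 SD for 3 tumors per group. Complex IV runs from 849 TPM in DOX/anti-PD-1 replicate 3 to 2119 TPM in anti-PD-1 replicate 3.

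The first comparison asked whether doxorubicin, given with either antibody, left the respiratory chain at a different level. The 6 doxorubicin tumors were set against the 6 others in a model with antibody as a second term, fitted with limma to log2(TPM + 1) of the 14735 genes that reached 1 TPM in at least 3 tumors. Of the 95 respiratory chain genes, 93 were tested. In bulk tumor RNA, fewer cells of a type and less RNA per cell cannot be told apart.

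The limits were an adjusted p below 0.1 together with a log2 fold change beyond 1 in size. None of the 93 passed both in limma, where 0.0204% of all genes tested did. That share is 3 genes, and it was 12 under a common sum, 14 under median of ratios scaling, 27 without DOX/anti-PD-1 replicate 2, 211 without DOX/IgG1 replicate 1 and 0 to 6 in the other refits, with 0 of the respiratory chain genes each time. At an unadjusted p under 0.05, 4 were higher and 7 lower with doxorubicin. Over all genes tested the shares were 8.82% higher and 3.16% lower. The lowest adjusted p among the 93 was 0.205. No gene of the 93 had all 6 doxorubicin tumors above or all 6 below the others, where 0.597% of all genes tested were entirely above and 0.122% entirely below.

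The median log2 difference with doxorubicin was −0.055 over the respiratory chain genes and 0.12 over all genes tested, a gap of −0.17. Scaling by the median of ratios moved the median of all genes from 0.12 to 0.0073, and that of the respiratory chain genes to −0.18, so differences of gene groups are given relative to all genes from here on. The gap to all genes ran from −0.26 to −0.08 over the alternatives that kept the filter on low values. The median of the respiratory chain genes taken alone turned positive without anti-PD-1 replicate 3 (0.0042) and without DOX/anti-PD-1 replicate 3 (0.04).

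Relative to all genes, the median doxorubicin difference was −0.19 in complex I, −0.09 in complex II, −0.08 in complex III, −0.23 in complex IV and −0.13 in complex V. Each of these kept its sign under both other scalings. Complex I ran from −0.30 without DOX/anti-PD-1 replicate 1 to −0.073 without the filter on low values, and was −0.089 without IgG1 replicate 1. Complex IV ran from −0.36 without anti-PD-1 replicate 1 to −0.11 without DOX/anti-PD-1 replicate 3. The signs of complexes II and III were the reverse without that filter (0.023 and 0.034), where the median of all genes is 0. Leaving out 1 tumor turned complex II without IgG1 replicate 1 (0.0077), complex III without IgG1 replicate 2 (0.019) and complex V without DOX/anti-PD-1 replicate 3 (0.0023). The 9 complex I assembly factors had a median of 0.013 relative to all genes, which turned negative without any 1 of 5 tumors, down to −0.10 without anti-PD-1 replicate 1. The 7 complex IV isoforms tested had −0.33, and −0.78 to −0.16 over the alternatives.

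Other gene groups gave a scale for these medians. Relative to all genes, the 78 mitochondrial ribosome genes tested had a median doxorubicin difference of −0.14 and the 94 cytosolic ribosome genes tested −0.16, close to the −0.17 of the respiratory chain genes, and each kept its sign under every alternative. Adipocyte markers went the other way. All 10 were tested, 10 of 10 had a positive difference and 3 an unadjusted p under 0.05. Their median was 0.80 relative to all genes (0.49 to 1.06 over the alternatives). Over all genes tested, 9332 of 14735 were positive and 8.82% were higher at that p. The markers summed to 191, 415 and 349.8 TPM with IgG1, 232, 167 and 285 with anti-PD-1, 300.5, 1041 and 230.5 with DOX/IgG1, and 1010.5, 392 and 316 with DOX/anti-PD-1. Cfd was the most abundant, and no marker of the list was at 0 in all tumors. By pair of groups, the median relative to all genes was 1.27 in DOX/anti-PD-1 against anti-PD-1. In DOX/IgG1 against IgG1 it was 0.29, with 0 of 10 at that p, and it turned to −0.12 without IgG1 replicate 1 and −0.032 without DOX/IgG1 replicate 2. In anti-PD-1 against IgG1 it was −0.53 (−1.21 to −0.17 over the alternatives), with 8 of 10 negative. The part of fat cells in the respiratory chain values was not tested.

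The other lists spread to both sides. Relative to all genes, assembly factors outside the 95 had −0.12, pyruvate entry 0.053, biogenesis regulators 0.11, leukocyte markers 0.14 and brown fat markers 0.43, each with the same sign under every alternative. The brown fat list includes Cox8b and Cox7a1, which are among the 95. Proliferation markers had −0.17, but 0.057 without DOX/IgG1 replicate 2. Skeletal muscle markers had −0.30, but 0.032 without IgG1 replicate 3, 0.31 without anti-PD-1 replicate 1 and 0.48 without DOX/anti-PD-1 replicate 2. Medians of the tricarboxylic acid cycle, ubiquinone, hypoxia, epithelial, endothelial and fibroblast lists lay between −0.081 and 0.048, and each took both signs over the alternatives.

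**Figure D3:**
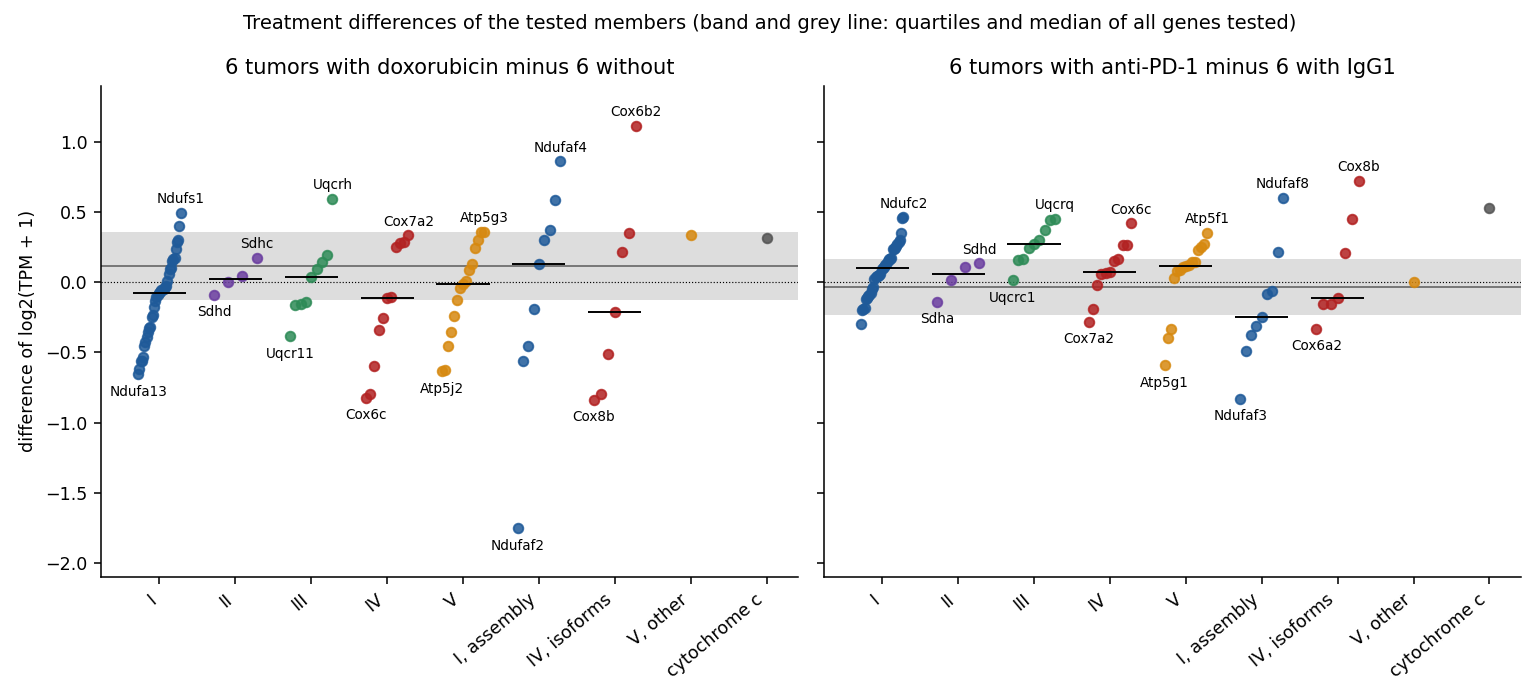
Log2 difference of each tested respiratory chain gene, with 1 point per gene and a line at each median, by complex, for doxorubicin over both antibodies and for anti-PD-1 with and without doxorubicin. Ndufaf2 at −1.75 is the lowest and Cox6b2 the highest point of the doxorubicin panel, and no point passed the limits.

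The gene with the smallest p was Ndufa4, a complex IV subunit (ENSMUSG00000029632, chr6:11900292-11907497). Its levels were 87.1, 57.6 and 39.5 TPM with IgG1, 66.0, 45.0 and 65.3 with anti-PD-1, 27.6, 27.8 and 33.5 with DOX/IgG1, and 47.4, 38.9 and 27.4 with DOX/anti-PD-1. All 3 DOX/IgG1 tumors and 2 of 3 DOX/anti-PD-1 tumors lay below each of the 6 tumors without doxorubicin, and DOX/anti-PD-1 replicate 1 lay among them. Means were 33.8 ± 8.09 with and 60.1 ± 17.0 TPM without doxorubicin (SD, n = 6 each), a log2 difference of −0.80 with an adjusted p of 0.205 in limma and an exact two-sided permutation p of 0.01, where 0.005 is the smallest the design allows. As Ndufa4 was picked for its p, the permutation p follows from the choice.

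Of the 11 broadly expressed complex IV subunits, 7 had a negative doxorubicin difference. Cox6c, the most abundant of them, was at 637, 294 and 331 TPM with IgG1, 697, 738 and 813 with anti-PD-1, 393, 291 and 274 with DOX/IgG1, and 492, 383 and 141 with DOX/anti-PD-1. The highest 3 values were the anti-PD-1 tumors and the lowest was DOX/anti-PD-1 replicate 3. The doxorubicin difference was −0.82 (adjusted p 0.318 in limma), and −0.98 to −0.53 with 1 tumor left out. Cox7b, an accessory subunit, was at 285, 283 and 218 TPM with IgG1, 278, 314 and 282 with anti-PD-1, 242, 165 and 187 with DOX/IgG1, and 179, 256 and 106 with DOX/anti-PD-1, and 4 of the 6 doxorubicin tumors lay below all 6 others. Its difference was −0.59 (adjusted p 0.276 in limma). Cox4i1, the regulatory subunit that binds ATP, differed by 0.29 in the other direction (adjusted p 0.493 in limma). With 1 tumor left out it differed by 0.18 to 0.36.

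In complex I, 24 of the 36 structural subunits had a negative and 12 a positive doxorubicin difference, while over all genes tested 5403 were negative and 9332 positive. Ndufc2, the most abundant subunit of the complex, was at 264, 181 and 223 TPM with IgG1, 257, 351 and 369 with anti-PD-1, 241, 114 and 127 with DOX/IgG1, and 204, 237 and 160.1 with DOX/anti-PD-1. DOX/IgG1 replicates 2 and 3 and DOX/anti-PD-1 replicate 3 lay below all tumors without doxorubicin. The difference was −0.62 (adjusted p 0.257 in limma). Ndufa5, an accessory subunit of the matrix arm, was at 99.1, 119 and 106 TPM with IgG1, 94.8, 139.8 and 122 with anti-PD-1, 119, 69.9 and 64.4 with DOX/IgG1, and 80.3, 82.0 and 54.7 with DOX/anti-PD-1. The doxorubicin tumors were below all others except DOX/IgG1 replicate 1, and the difference was −0.56 (adjusted p 0.266 in limma). Without DOX/IgG1 replicate 1, adjusted p was 0.0587 for Ndufc2 and 0.0729 for Ndufa5, with log2 differences of −0.77 and −0.70, short of the fold limit, while genes passing both limits numbered 211 in place of 3. Among the core subunits, the largest differences were 0.49 for Ndufs1 and 0.40 for Ndufv1 (adjusted p 0.459 and 0.463 in limma). With 1 tumor left out these were 0.32 to 0.61 and 0.32 to 0.58.

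The assembly factors of complex I went both ways. Ndufaf4, which helps to build the early membrane-bound intermediate, was at 13.0, 9.47 and 7.93 TPM with IgG1, 5.49, 13.5 and 9.13 with anti-PD-1, 12.4, 16.2 and 14.8 with DOX/IgG1, and 26.0, 15.3 and 27.2 with DOX/anti-PD-1. Of the 6 doxorubicin tumors, 5 lay above all others, and DOX/IgG1 replicate 1 lay among them. The difference was 0.86 (adjusted p 0.241 in limma, exact permutation p 0.01, unadjusted and in a gene picked for its small p). Ndufaf7, a methyltransferase, was at 10.3, 12.2 and 9.48 TPM with IgG1, 7.04, 7.31 and 7.06 with anti-PD-1, 16.6, 14.1 and 10.5 with DOX/IgG1, and 12.9, 14.5 and 13.9 with DOX/anti-PD-1, and 5 of 6 doxorubicin tumors lay above all others. Its difference was 0.59 (adjusted p 0.3 in limma).

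Ndufaf2, a late-acting chaperone of complex I, had the largest negative difference of the 93 genes. It was at 14.8, 8.02 and 1.66 TPM with IgG1, 23.3, 1.00 and 4.48 with anti-PD-1 and 3.59, 0 and 3.21 with DOX/IgG1, where replicate 2 was listed at 0. In DOX/anti-PD-1, replicates 1 and 3 were listed at 0 and replicate 2 was at 2.54 TPM. The 2 high tumors, IgG1 replicate 1 and anti-PD-1 replicate 1, stood at 14.8 and 23.3 TPM. The fitted difference of −1.75 (adjusted p 0.31 in limma) depends on the value added before the logarithm and ran from −3.26 to −1.29 over the alternatives. It was −1.43 with IgG1 and −2.08 with anti-PD-1 (adjusted p 0.726 and 0.562), and −2.15 to −0.72 and −2.92 to −1.12 with 1 tumor left out.

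In complexes II, III and V few genes stood out. Uqcrh, the hinge protein between cytochromes c1 and c, was at 68.9, 40.1 and 21.3 TPM with IgG1, 40.9, 50.9 and 64.7 with anti-PD-1, 71.0, 50.3 and 52.1 with DOX/IgG1, and 82.4, 59.2 and 108 with DOX/anti-PD-1. Its 2 highest values were doxorubicin tumors and its lowest was IgG1 replicate 3, with a difference of 0.59 (adjusted p 0.368 in limma). Atp5j2, a membrane subunit of complex V, was at 85.5, 56.9 and 51.8 TPM with IgG1, 39.9, 72.8 and 51.2 with anti-PD-1, 65.2, 45.4 and 26.4 with DOX/IgG1, and 45.0, 43.3 and 16.5 with DOX/anti-PD-1, with a difference of −0.63 (adjusted p 0.385 in limma). The differences of the alpha and beta subunits of complex V were near 0, with −0.014 for Atp5a1 and 0.013 for Atp5b, and the latter was −0.11 under median of ratios scaling. In complex II, Sdha and Sdhb differed by 0.043 and 0.0034, and by −0.08 and −0.12 under median of ratios scaling.

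**Figure D4:**
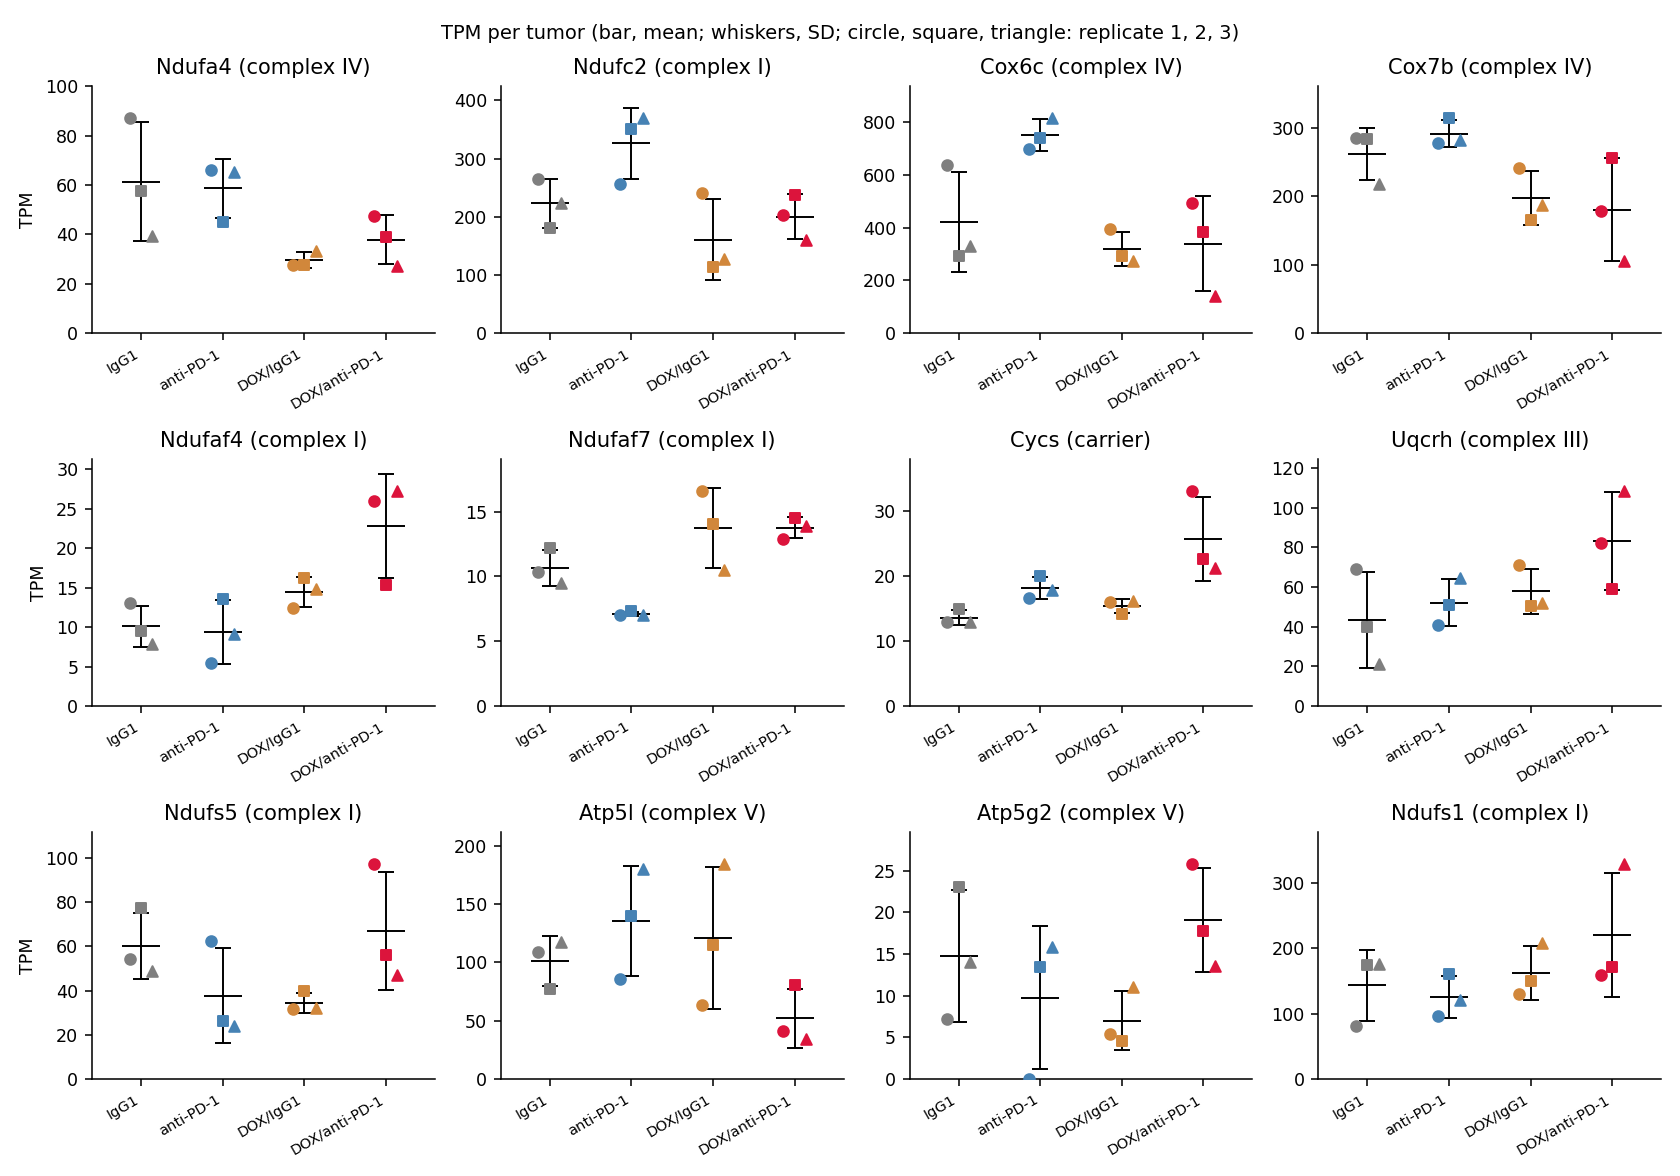
Levels in TPM of 12 respiratory chain genes in every tumor by group, with a line at the group mean. Ndufa4 runs from 27.4 to 87.1 TPM and Cycs from 12.9 to 33.1 TPM over the 12 tumors.

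The 4 pairs of groups were then compared within each background. They share groups, since each group enters 2 of the pairs, so their values are given side by side and no overlap between them is drawn. With 3 tumors against 3, an exact two-sided permutation test cannot give a p below 0.1. It gives 0.1 for every gene whose groups do not overlap, so this p adds nothing to the separation.

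In DOX/IgG1 against IgG1, the question was what chemotherapy without PD-1 blockade left behind. Of 92 genes tested, 0 passed the limits in limma (0.036% of all genes tested). That share is 5 genes, and it was 113 without DOX/IgG1 replicate 1. It was 0 without any 1 of the IgG1 tumors and 2 to 13 in the other refits, with 0 of the respiratory chain genes each time. At an unadjusted p under 0.05, 1 was higher and 3 lower, against 5.03% and 2.7% of all genes tested. The groups did not overlap for 2 genes that were higher and 7 that were lower, where over all genes tested the shares were 9.31% and 4.64%. The median was −0.16 relative to all genes, but −0.019 without IgG1 replicate 1, −0.28 without IgG1 replicate 3 and −0.001 without the filter on low values. Of 10 proliferation markers 9 were negative, against 5467 of 13874 genes tested, with a median of −0.45 relative to all genes that ran from −0.92 to −0.025 over the alternatives. Their part was not tested.

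Ndufs6, a zinc-binding accessory subunit of complex I, was at 8.80, 6.75 and 8.44 TPM against 18.4, 20.4 and 14.9 TPM, a log2 difference of −1.07 (adjusted p 0.497 in limma, exact permutation p 0.1). Ndufs5, an accessory subunit of the membrane arm, was at 31.7, 39.6 and 32.3 against 54.4, 77.2 and 48.8 TPM, a difference of −0.76 (adjusted p 0.552). For both, and for Ndufa4 with −0.96 (adjusted p 0.534), every DOX/IgG1 tumor lay below every IgG1 tumor. Ndufaf3, which assembles the ubiquinone module, was at 14.4, 40.4 and 34.8 against 23.1, 18.0 and 8.91 TPM, with overlap. Its difference was 0.78 (adjusted p 0.743), and 0.41 to 1.22 with 1 tumor left out. Atp5s was at 6.17, 7.41 and 8.27 against 2.72, 7.57 and 4.28 TPM, a difference of 0.58 (adjusted p 0.782), and 0.29 to 0.89 with 1 tumor left out. Cox6b2, a testis form of a complex IV subunit, was at 13.7, 1.93 and 3.06 TPM with DOX/IgG1 and at 3.06 TPM in IgG1 replicate 2, and was listed at 0 in the other 2 IgG1 tumors. Its fitted difference was 1.81 (adjusted p 0.639), 1.11 without DOX/IgG1 replicate 1, and 3.82 with a pseudocount of 0.1.

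In DOX/anti-PD-1 against anti-PD-1, the same question was put under PD-1 blockade. Of 91 genes tested, 0 passed the limits in limma (0% of all genes tested), and 14 had an unadjusted p under 0.05, 6 higher and 8 lower, against 6.3% and 2.33% of all genes tested. The groups did not overlap for 8 genes in each direction, against 11.1% of all genes tested higher and 3.84% lower. The median was −0.12 relative to all genes, but 0.012 without DOX/anti-PD-1 replicate 3, −0.24 without anti-PD-1 replicate 1 and −0.28 without DOX/anti-PD-1 replicate 1. Of 10 adipocyte markers 10 were positive here and 7 had an unadjusted p under 0.05, with a median of 1.27 relative to all genes (0.78 to 1.53 over the alternatives). Of 13 fibroblast and pericyte markers tested, 10 were positive and 6 were higher at that p, with a median of 0.49 (0.37 to 0.57). Without overlap, 8 of them were higher and 1 lower. Of 6 brown fat markers tested, 4 were positive and 2 higher at that p, with a median of 0.81 (0.49 to 1.21). Over all genes tested, 8239 of 13736 were positive. The part of these lists was not tested.

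Atp5l, the g subunit at the dimer interface of the ATP synthase, was at 40.9, 81.0 and 34.1 TPM against 85.9, 139.8 and 179.9 TPM. Every DOX/anti-PD-1 tumor was below every anti-PD-1 tumor, with a difference of −1.40 (adjusted p 0.479 in limma, exact permutation p 0.1). Cox6c was apart in the same way, with −1.32 (adjusted p 0.495) but −0.79 without DOX/anti-PD-1 replicate 3, as were Ndufa1, a small membrane-arm subunit, with −0.78, Ndufc2 with −0.70, Ndufa5 with −0.71 and Cox7b with −0.78. Higher without overlap were Ndufv1, which holds the FMN that accepts electrons from NADH, at 128, 91.5 and 126 against 57.4, 68.3 and 71.0 TPM, and Ndufaf4. Their differences were 0.79 (adjusted p 0.488) and 1.23 (adjusted p 0.495). Ndufaf7 and Atp5e, the epsilon subunit, were also higher without overlap, with 0.86 and 0.51. Complex I thus held genes apart in both directions.

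In anti-PD-1 against IgG1, the question was what PD-1 blockade alone left behind. Of 91 genes tested, 0 passed the limits in limma (0% of all genes tested). At an unadjusted p under 0.05, 2 were higher and 0 lower, against 1.75% and 2.85% of all genes tested. The groups did not overlap for 5 genes that were higher and 3 that were lower, against 3.64% and 6.24% of all genes tested. The median was 0.08 relative to all genes, but −0.06 without IgG1 replicate 3, 0.20 without anti-PD-1 replicate 1 and 0.32 without IgG1 replicate 1. All 9 complex I assembly factors were negative, with a median of −0.36 (−0.53 to −0.023 over the alternatives). So were all 10 epithelial markers, with −0.30 (−0.49 to −0.12), and 7 of 9 leukocyte markers, with −0.43 (−0.52 to −0.18). Of 13 fibroblast and pericyte markers 10 were negative, with −0.19 (−0.35 to −0.095). Of 10 proliferation markers 7 were positive, with 0.31 (0.11 to 0.36). Over all genes tested, 7224 of 13692 were negative. The part of these lists was not tested.

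Cox6c was higher in each anti-PD-1 tumor, at 697, 738 and 813 TPM, than in any IgG1 tumor, at 637, 294 and 331 TPM. The difference was 0.92 (adjusted p 0.996 in limma, exact permutation p 0.1). Atp5f1, the b subunit of the peripheral stalk of complex V, was also apart, at 118, 121 and 100.2 against 71.1, 83.8 and 80.9 TPM, a difference of 0.52 (adjusted p 0.996). Ndufs5 was at 62.4, 26.3 and 24.2 against 54.4, 77.2 and 48.8 TPM, with overlap. Its difference was −0.77 (adjusted p 0.996), and −1.19 to −0.53 with 1 tumor left out. Ndufa1 was at 36.3, 29.7 and 29.8 against 11.1, 25.3 and 32.0 TPM, also with overlap, and differed by 0.58 (adjusted p 0.996), but by 0.16 without IgG1 replicate 1. Atp5g2 was at 13.4 and 15.9 TPM in anti-PD-1 replicates 2 and 3 and listed at 0 in replicate 1, against 7.19, 23.0 and 14.1 TPM. Its fitted difference of −1.20 (adjusted p 0.996) was 0.12 without that tumor. Cox6b2 was listed at 0 in anti-PD-1 replicate 2 and in IgG1 replicates 1 and 3, and was at 4.94, 6.34 and 3.06 TPM in the other 3 tumors, a fitted difference of 1.14 (adjusted p 0.996), or 2.05 without anti-PD-1 replicate 2.

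The question for DOX/anti-PD-1 against DOX/IgG1 was what PD-1 blockade added to chemotherapy. Of 92 genes tested, 0 passed the limits in limma (0% of all genes tested). At an unadjusted p under 0.05, 3 were higher and 1 lower, against 1.81% and 2.89% of all genes tested. The groups did not overlap for 7 genes that were higher and 0 that were lower, against 4.27% and 5.95% of all genes tested. The median was 0.16 relative to all genes and ran from 0.034 to 0.29 over the alternatives that kept the filter. In the same pair all 10 proliferation markers were positive, against 6460 of 13946 genes tested, with a median of 0.68 relative to all genes (0.30 to 1.10 over the alternatives). All 6 brown fat markers tested were positive, with 0.79 (0.042 to 1.29), and 10 of 11 leukocyte markers were negative, with −0.27 (−0.70 to −0.033). Their part was not tested. By complex, relative to all genes, the respiratory chain median was 0.15 in complex I, −0.0098 in complex II, 0.40 in complex III, 0.13 in complex IV and 0.17 in complex V. Without DOX/anti-PD-1 replicate 1, complexes I and IV turned to −0.049 and −0.058, and complex II was positive without DOX/IgG1 replicate 2 (0.065), DOX/IgG1 replicate 3 (0.066) or DOX/anti-PD-1 replicate 3 (0.23). Complexes III and V kept their sign under every alternative run, from 0.32 to 0.565 and from 0.014 to 0.27.

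The DOX/anti-PD-1 tumors had Ndufs5 at 97.3, 56.3 and 47.1 TPM against 31.7, 39.6 and 32.3 TPM with DOX/IgG1, without overlap, a difference of 0.87 (adjusted p 0.988 in limma). Uqcrq, an accessory subunit of complex III, was at 121, 125 and 187 against 53.1, 109 and 100.3 TPM, without overlap and with a difference of 0.75 (adjusted p 0.988). Atp5g2, 1 of 3 genes for the c ring of complex V, was at 25.8, 17.8 and 13.6 against 5.45, 4.57 and 11.1 TPM, also apart, and differed by 1.36 (adjusted p 0.988). Atp5g1, which encodes the same mature protein, was at 14.0, 10.9 and 2.30 against 11.8, 17.4 and 26.0 TPM, with overlap and a difference of −1.14 (adjusted p 0.988), or −0.47 without DOX/anti-PD-1 replicate 3. Ndufaf3, at 4.61, 22.6 and 12.2 against 14.4, 40.4 and 34.8 TPM, and Atp5l, at 40.9, 81.0 and 34.1 against 63.0, 115 and 184 TPM, were lower with overlap. Their differences were −1.24 and −1.17 (adjusted p 0.988 for each), and −1.72 to −0.69 and −1.57 to −0.80 with 1 tumor left out. Ndufaf8, another assembly factor of complex I, was at 21.9, 4.66 and 13.8 TPM against 9.82 and 11.9 TPM in DOX/IgG1 replicates 2 and 3, with replicate 1 listed at 0. Its fitted difference of 1.26 was 0.075 without that tumor.

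Over both backgrounds, the 6 tumors with PD-1 blockade were also set against the 6 with IgG1. Of 93 genes tested, 0 passed the limits in limma (0% of all genes tested), and 4 had an unadjusted p under 0.05, against 4.69% of all genes tested. Relative to all genes the median was 0.14, but 0.048 without DOX/anti-PD-1 replicate 1, 0.055 without IgG1 replicate 3 and 0.22 without IgG1 replicate 1. By complex it was 0.13 in complex I, 0.09 in complex II, 0.30 in complex III, 0.11 in complex IV and 0.15 in complex V. All 5 were positive under every alternative run. The lowest values were 0.046 in complex I, 0.0064 in complex II, 0.18 in complex III, 0.018 in complex IV and 0.035 in complex V. All 9 complex III genes had a positive difference, while 2 of 9 complex I assembly factors did, against 6716 of 14735 genes tested.

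Of the 93 genes, 1, Cycs, had its 6 anti-PD-1 tumors entirely above its 6 IgG1 tumors, and 0 had them below, where the shares over all genes tested were 0.0882% and 0.115%. Cycs encodes cytochrome c, which carries electrons from complex III to IV and triggers caspases when released (ENSMUSG00000063694, chr6:50562563-50566538). Its levels were 12.9, 14.9 and 13.0 TPM with IgG1, 16.6, 20.0 and 17.9 with anti-PD-1, 16.0, 14.2 and 16.1 with DOX/IgG1, and 33.1, 22.7 and 21.2 with DOX/anti-PD-1. The lowest value with PD-1 blockade, 16.6 TPM, was just above the highest with IgG1, 16.1 TPM, and DOX/anti-PD-1 replicate 1 was the highest of all. Means were 21.9 ± 5.89 against 14.5 ± 1.41 TPM (SD, n = 6 each), a log2 difference of 0.53 with an adjusted p of 0.911 in limma. The exact two-sided permutation p was 0.005, the smallest the design allows, with no adjustment for the number of genes. As Cycs was picked for having no overlap between the 6 and 6 tumors, this p follows from the choice.

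Markers of proliferation and of other cells varied across the same tumors. Over all genes tested, 6716 of 14735 had a positive and 8019 a negative difference with PD-1 blockade. All 10 proliferation markers were tested, 10 of 10 had a positive difference with PD-1 blockade and 1 of them an unadjusted p under 0.05, with a median of 0.50 relative to all genes. Their summed levels were 495, 559.7 and 567 TPM with IgG1, 569, 746 and 607 with anti-PD-1, 598, 293 and 439.5 with DOX/IgG1, and 831, 681 and 364 with DOX/anti-PD-1, and Pcna was the most abundant. No marker of this list was at 0 in all tumors. Of 15 leukocyte markers 11 were tested, 10 of 11, or 9 under both other scalings, had a negative difference and 1 an unadjusted p under 0.05, with a median of −0.40 relative to all genes. They summed to 217, 188 and 259 TPM with IgG1, 151, 203 and 142 with anti-PD-1, 150.2, 264 and 308 with DOX/IgG1, and 139, 236 and 189 with DOX/anti-PD-1. Ptprc was the most abundant, and Ly6g was listed at 0 in all tumors. Of the 10 epithelial markers 9 were negative, or 8 under both other scalings, with a median of −0.11. They summed to 3948, 2690.2 and 3376 TPM with IgG1, 2975, 2317 and 2552 with anti-PD-1, 2324, 3494 and 4059 with DOX/IgG1, and 3305, 3031 and 2460.2 with DOX/anti-PD-1. Over the alternatives these medians ran from 0.26 to 0.66 for proliferation, from −0.62 to −0.20 for leukocytes and from −0.23 to −0.0062 for epithelium. The part of these markers in the level of Cycs and of the complexes was not tested.

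Whether doxorubicin acted differently under PD-1 blockade was tested with an interaction term. Of 93 genes, 0 passed the limits in limma (0.00679% of all genes tested). That share is 1 gene, and it was 5 without the filter on low values, 3 without the trend of variance and 0 or 1 in the other refits. At an unadjusted p under 0.05 there were 3 of the 93, against 4.71% of all genes tested. They were Ndufs5 with 1.64, Atp5l with −1.55 and Atp5g2 with 2.56 (adjusted p 0.993 for each). For Ndufs5 the doxorubicin difference was −0.76 with IgG1 and 0.88 with anti-PD-1. Atp5l differed by 0.15 with IgG1 and −1.40 with anti-PD-1. Atp5g2 differed by −0.93 and 1.64, and it was listed at 0 in anti-PD-1 replicate 1, without which the latter was 0.32.

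Some tumors were often the lowest or highest of the 12. Among the 84 genes above 0 everywhere, DOX/anti-PD-1 replicate 3 was the lowest of the 12 tumors in 26, or 31.0%, against 11.9% of all genes above 0 everywhere. DOX/anti-PD-1 replicate 1, of the same group, was the highest in 18 of the 84, or 21.4%, against 8.33%. IgG1 replicate 1 showed the reverse contrast, as the lowest tumor in 22.0% of all genes but in 7.14% of respiratory chain genes. What sets these tumors apart was not tested.

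**Figure D5:**
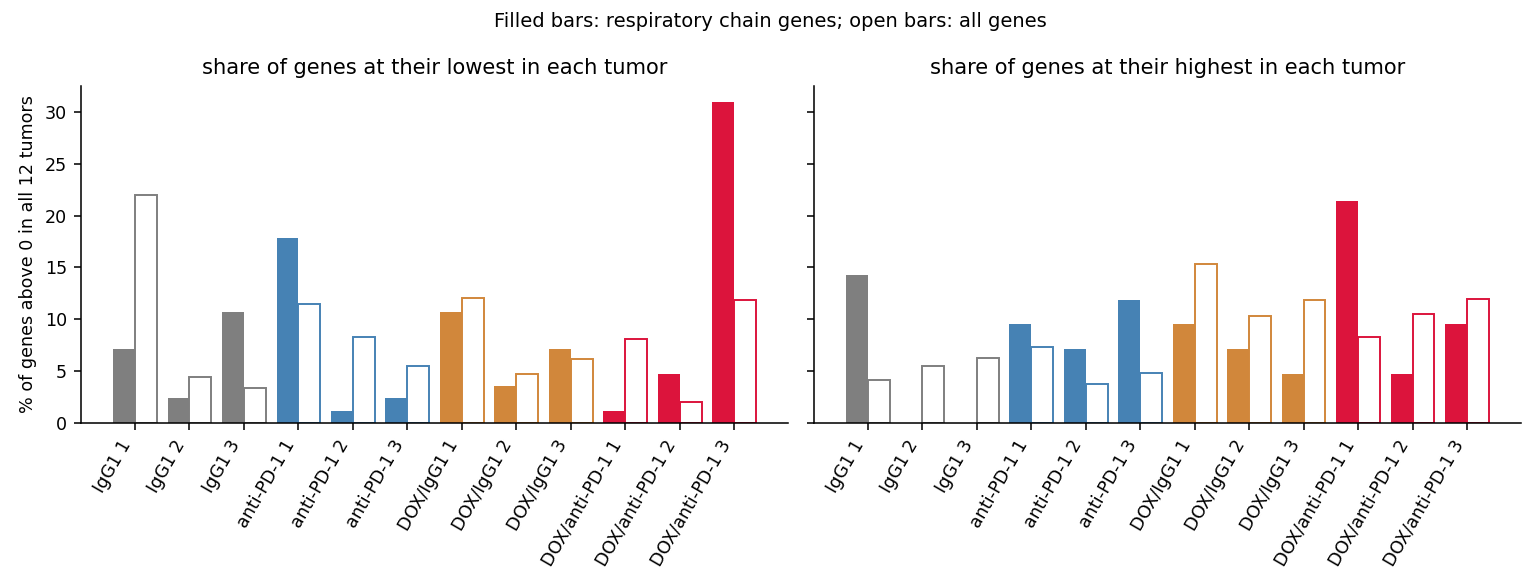
Percent of genes for which each tumor is the lowest or the highest of the 12, for the 84 respiratory chain genes above 0 in all tumors and for all such genes. DOX/anti-PD-1 replicate 3 is lowest in 31.0% of the respiratory chain genes and 11.9% of all genes.

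Although complex I held its highest share in DOX/anti-PD-1 replicate 3, some of its subunits were far below their other values there. Ndufb5, an accessory subunit of complex I, was at 40.6 TPM there and at 127 to 295 TPM in the other 11 tumors. Ndufa13, also known as Grim19, was at 8.30 TPM against 26.8 to 55.4 TPM. Ndufs8 was at 3.66 TPM against 9.83 to 24.2 TPM. The direction was not uniform, since Ndufs1 at 329 TPM and Ndufb10 at 197 TPM were at their highest in the same tumor.

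Variation between tumors of a group differed widely among the respiratory chain genes. The SD of log2(TPM + 1) within groups had a median of 0.456 over the 93 tested genes and 0.478 over all genes tested, but 0.443 against 0.399 among genes averaging 10 TPM or more. Many are short. Of the 93, 22 (23.7%) have exons summing to under 1 kb, against 3.47% of all genes tested with a known length, and among genes that short and at 10 TPM or more the medians were 0.484 and 0.728. The steadiest of the genes at 10 TPM or more were Ndufaf7, Cycs, Atp5f1 and Ndufab1, with SDs of 0.183, 0.192, 0.194 and 0.201. The least steady were Cox8b, Ndufaf8, Atp5g2 and Uqcr11, with 1.46, 1.28, 1.27 and 1.10.

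Several complex IV subunits exist as a broad form and a form of muscle, lung, testis or low oxygen. The broad forms dominated. Cox4i1 made up 98.1 to 100% of Cox4i transcripts by TPM, and its lung and low-oxygen form Cox4i2 was at 0 to 3.08 TPM, listed at 0 in 4 tumors, with a fitted difference of −0.85 in anti-PD-1 against IgG1 (adjusted p 0.996 in limma), −0.46 without anti-PD-1 replicate 1 and −1.95 with a pseudocount of 0.1. Cox6a1 made up 85.9 to 100% and Cox6b1 88.8 to 100% of their families, with the heart and muscle form Cox6a2 at 0 to 3.59 TPM and the testis form Cox6b2 at 0 to 13.7 TPM. Cox7b2, another testis form, was above 0 in anti-PD-1 replicate 2 alone, at 1.29 TPM. Ndufa4l2, a low-oxygen relative of Ndufa4, made up 0 to 8.93% of that pair. Cox7a2l, the supercomplex factor SCAF1, was at 70.0 to 134 TPM.

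Forms of striated muscle and brown fat were present in some tumors. Cox8b was at 13.4, 6.77 and 17.5 TPM with IgG1, 5.47, 29.5 and 17.0 with anti-PD-1, 37.5, 5.37 and 5.68 with DOX/anti-PD-1, and 16.8 and 6.78 TPM in DOX/IgG1 replicates 2 and 3, while replicate 1 was listed at 0. It held up to 33.4% of Cox8 transcripts. In DOX/IgG1 against IgG1 its fitted difference was −1.30, but −0.11 without DOX/IgG1 replicate 1. Between the doxorubicin groups, DOX/anti-PD-1 minus DOX/IgG1, it was 1.19, and 0.0019 without that tumor. Cox7a1 held up to 21.9% of its pair with Cox7a2, with a highest level of 11.3 TPM, and was listed at 0 in anti-PD-1 replicate 1, DOX/IgG1 replicate 1 and DOX/anti-PD-1 replicate 3. In DOX/IgG1 against IgG1 its fitted difference was −1.31 (adjusted p 0.694), but −0.59 without DOX/IgG1 replicate 1.

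Skeletal muscle markers varied over a wide range. Of 14 markers all 14 are listed and 13 averaged 1 TPM or more, and they summed to 195, 46.4 and 656 TPM with IgG1, 739, 79.6 and 36.8 with anti-PD-1, 76.0, 186 and 233 with DOX/IgG1, and 1179.8, 13.8 and 205 with DOX/anti-PD-1. Acta1 was the most abundant on average, and Acta1, Ckm, Myh4 and Tnnt3 were all listed at 0 in DOX/anti-PD-1 replicate 2. The 8 brown fat markers, which include Cox8b and Cox7a1, summed to 34.0, 30.3 and 32.2 TPM with IgG1, 11.4, 39.0 and 39.1 with anti-PD-1, 4.15, 41.2 and 27.0 with DOX/IgG1, and 107, 30.9 and 41.6 with DOX/anti-PD-1, and Cox8b itself was the most abundant. Ucp1, the defining gene of brown fat, was at 26.4 TPM in DOX/anti-PD-1 replicate 1, 3.09 in DOX/IgG1 replicate 2 and 0.77 in anti-PD-1 replicate 2, and was listed at 0 in the other 9. Their part in Cox8b and Cox7a1 was not tested.

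The c ring of complex V is encoded by Atp5g1, Atp5g2 and Atp5g3, whose mature proteins are identical. Atp5g3 held 64.9 to 86.0% of their summed TPM, Atp5g1 2.04 to 20.9% and Atp5g2 0 to 20.6%. Atp5g3 was at 90.4, 73.8 and 52.5 TPM with IgG1, 66.3, 76.4 and 97.5 with anti-PD-1, 87.9, 101 and 87.6 with DOX/IgG1, and 85.3, 123 and 97.2 with DOX/anti-PD-1. Its 2 highest values were in doxorubicin tumors and its lowest was IgG1 replicate 3, with a doxorubicin difference of 0.36 (adjusted p 0.415 in limma).

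The region before the start of the gene is known to hold sites for NRF1 in a number of respiratory chain genes, so short motifs, chosen after the expression values were seen, were looked for on both strands of the 250 bases before each start in RefSeq (GRCm38.p6). All 95 genes matched a RefSeq gene and 78 have such a window. Starts in RefSeq and GENCODE can differ: of the 84 windows of these 78 genes, 50 reach into the gene as GENCODE places it, 12 of them with all their bases. GCATGCGC, the core of an NRF1 site, was present in 10 of 78 (12.8%), against 3.32% of 17491 protein-coding genes. TGACGTCA, a CREB-type motif, was present in 5 (6.41% against 2.2%) and CCGGAAG, an ETS-type motif, in 14 (17.9% against 10.2%). Longer or other motifs were near the background or rare, with 3 (3.85% against 4.26%) for CCGGAAGT, which contains the former, 2 (2.56% against 1.77%) for AAGATGGC, 2 (2.56% against 0.84%) for AAGATGGCG, which contains it, and 1 (1.28% against 0.36%) for TCAAGGTCA. A match describes the letters and says nothing of binding.

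The factors named for these sites were themselves expressed, with Nrf1 at 20.5 to 39.0 TPM and Gabpa, an ETS factor, at 28.2 to 61.2 TPM.

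Both Cycs, the gene apart with PD-1 blockade, and Ndufaf4, the assembly factor with the smallest doxorubicin p, carry GCATGCGC, and Cycs also TGACGTCA. Of the 10 genes with GCATGCGC, 4 had a positive and 6 a negative doxorubicin difference, and of the 67 other tested genes with a window 28 and 39. The 250 bases of Cycs, of Ndufaf4 and of Ndufa4, which holds none of the motifs searched, are given 5′ to 3′ along each gene with matches on either strand in capitals. The last 47 bases of the Ndufa4 stretch lie inside the gene as GENCODE places it.
Cycs, chr6:50566570-50566819 (minus strand): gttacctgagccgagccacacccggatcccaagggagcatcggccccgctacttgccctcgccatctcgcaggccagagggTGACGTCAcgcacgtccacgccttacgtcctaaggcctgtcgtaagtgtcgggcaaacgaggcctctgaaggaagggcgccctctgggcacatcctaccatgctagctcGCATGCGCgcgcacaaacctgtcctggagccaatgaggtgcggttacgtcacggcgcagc
Ndufaf4, chr4:24897833-24898082 (plus strand): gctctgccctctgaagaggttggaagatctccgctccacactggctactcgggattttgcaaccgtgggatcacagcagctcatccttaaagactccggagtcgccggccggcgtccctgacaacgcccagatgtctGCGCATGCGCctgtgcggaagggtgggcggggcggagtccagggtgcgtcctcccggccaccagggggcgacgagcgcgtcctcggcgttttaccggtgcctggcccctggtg
Ndufa4, chr6:11907451-11907700 (minus strand): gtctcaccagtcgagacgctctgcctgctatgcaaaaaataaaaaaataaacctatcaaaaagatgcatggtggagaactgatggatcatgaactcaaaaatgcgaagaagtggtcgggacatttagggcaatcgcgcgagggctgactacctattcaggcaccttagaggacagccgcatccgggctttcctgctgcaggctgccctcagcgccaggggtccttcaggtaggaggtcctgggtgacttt

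The other 8 genes with the NRF1 core span complexes I, II, IV and V. The match on the strand of the gene is shown to compare the surrounding bases, with the motif in capitals and up to 11 bases on each side. Atp5g2, Atp5k, Cox6a1 and Ndufa11 hold another match on the opposite strand, shifted by 2 bases and not shown. The matches shown for Atp5g2, Atp5k, Ndufa8 and Sdhb lie inside the gene as GENCODE places it.
Atp5g2 at chr15:102671069-102671098 (minus strand): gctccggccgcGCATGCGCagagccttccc
Atp5k at chr5:108434429-108434458 (minus strand): ttcactgcggcGCATGCGCctttctggctt
Atp5l at chr9:44920964-44920992 (minus strand): aaccaataacGCATGCGCatttcccccac
Cox6a1 at chr5:115349100-115349129 (minus strand): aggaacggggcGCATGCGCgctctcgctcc
Ndufa11 at chr17:56717693-56717722 (plus strand): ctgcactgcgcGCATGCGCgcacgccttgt
Ndufa6 at chr15:82354356-82354385 (minus strand): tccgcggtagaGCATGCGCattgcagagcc
Ndufa8 at chr2:36049339-36049357 (minus strand): tcgctggagacGCATGCGC
Sdhb at chr4:140961206-140961235 (plus strand): aagcccagtggGCATGCGCcctacgggccg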

How the data were processed

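Per the labels, the authors trimmed reads of stranded total RNA libraries with skewer, mapped them to mm10 with STAR, quantified genes with RSEM and deposited log2(TPM + 1), which was turned back to TPM here for levels. Genes at 1 TPM or more in at least 3 of the tumors compared were fitted on log2(TPM + 1) with limma 3.58.1 in R 4.3.3, with two-sided p-values, a trend of variance with level, and adjustment over all genes tested by Benjamini and Hochberg. A gene passed at an adjusted p below 0.1 with an absolute log2 fold change above 1. The 4 pairs of groups were fitted on 6 tumors each, and doxorubicin, antibody and their interaction on 12. A fold change is the gap between group means of log2(TPM + 1). Two-sided exact permutation tests permuted tumors, within antibody or doxorubicin for 6 against 6. The fit was run on simulated data with genes independent of each other and planted changes larger than the fold limit. Its power at that limit was not tested.

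Named genes were members past the limits, the 3 largest differences each way in the pairs and with doxorubicin, core subunits, isoform families, the most abundant gene of each complex, and 2 genes per list (highest level, largest doxorubicin difference). For 2 genes that this rule selects no value is given. Other genes named, those drawn by tumor, the motifs and the promoters printed were chosen after their values were seen. Members and lists were chosen with earlier results of these data known. Positions are from GENCODE. Of the 95 genes, 5 share exon bases with another annotated gene on the same strand and 29 on the opposite strand.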

Additional observations from a re-analysis of the deposited data

How the results depend on the processing

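No respiratory chain gene passed the limits in any of 113 alternatives run on the 7 fits, which changed the pseudocount (0.1 in place of 1), the filter, the scaling, the variance model, the block, the samples in the fit or the fold limit, or left out 1 tumor. The 106 alternatives run on the medians of the respiratory chain genes, as fitted, moved them by less than 0.205. That is the SD within groups of the mean log2(TPM + 1) of the tested respiratory chain genes in a tumor. Relative to all genes, 3 of the 106 moved further: anti-PD-1 against IgG1 from 0.08 to 0.32 without IgG1 replicate 1, and the interaction from −0.011 to −0.22 without that tumor and to 0.23 without IgG1 replicate 3. Among single genes and complexes, 73 values were run under alternatives, and of 1098 alternatives run on single genes, 1061 kept their direction and side of the limits. The other 37 turned the sign of differences that had not passed the limits, and the cause was not tested.

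With doxorubicin, median of ratios scaling gave −0.11 for Atp5b, −0.0845 for Cyc1, −0.0797 for Sdha and −0.12 for Sdhb. A common sum over the listed genes gave −0.032 for Atp5b, −0.0086 for Cyc1, −0.0017 for Sdha and −0.04 for Sdhb. Leaving out 1 tumor at a time gave −0.12 to 0.0618 for Atp5a1, −0.11 to 0.13 for Atp5b, −0.15 to 0.0555 for Atp5c1, −0.50 to 0.12 for Atp5g1, −0.37 to 0.66 for Atp5g2, −0.15 to 0.15 for Cyc1, −0.17 to 0.0549 for Ndufs7, −0.28 to 0.26 for Ndufs8, −0.025 to 0.15 for Sdha, −0.12 to 0.10 for Sdhb and −0.0289 to 0.37 for Sdhc. In anti-PD-1 against IgG1, where the fitted difference is −1.20, it gave −1.92 to 0.12 for Atp5g2, the highest without anti-PD-1 replicate 1, where this gene is listed at 0.

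Replicate numbers name no shared animal, and of 18 correlations between tumors of the same number over all genes, −0.096 to 0.134, 4 exceeded 0.1. With the replicate number as a block, genes past the limits were 1 in place of 3 with doxorubicin and 2 in place of 5 in DOX/IgG1 against IgG1. For the interaction they were 0 in place of 1. None of them was a respiratory chain gene. Without DOX/IgG1 replicate 1, 113 genes passed in DOX/IgG1 against IgG1 and 211 with doxorubicin, where Ndufa5 and Ndufc2 had adjusted p 0.0729 and 0.0587 at −0.70 and −0.77. The depth of the libraries is unknown, so no limit from counting can be given for values at 0.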

Other observations

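Genes around the respiratory chain were examined in the same tumors. Only 2 of them, the brown fat markers Cox8b and Cox7a1, are also among the 95. Of all the lists named here, no gene passed the limits with doxorubicin in limma, so the counts given are those at an unadjusted p under 0.05. Over all genes tested, 8.82% were higher and 3.16% lower at that p, and 9332 of 14735 had a positive difference.

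Of 13 genes of the tricarboxylic acid cycle, which feeds NADH and succinate to complexes I and II, 1 was higher with doxorubicin and 0 lower. Idh3a, a subunit of the NADH-producing isocitrate dehydrogenase, had the largest difference of the list and was at 69.9, 68.0 and 79.0 TPM with IgG1, 80.1, 103 and 91.2 with anti-PD-1, 111, 114 and 132 with DOX/IgG1, and 120.0, 101 and 67.5 with DOX/anti-PD-1. Of the 6 doxorubicin tumors, 4 were above all others, with a difference of 0.37 (adjusted p 0.433). Of 12 genes for pyruvate entry, 2 were higher and 1 lower. Pdha1, of pyruvate dehydrogenase, was the most abundant at 121 to 206 TPM, and Pdk4, the kinase that inhibits it, was at 2.63, 1.71 and 5.90 TPM with IgG1, 1.38, 0.88 and 1.60 with anti-PD-1, 1.28, 8.49 and 1.71 with DOX/IgG1, and 20.0, 2.92 and 12.4 with DOX/anti-PD-1, a difference of 1.06 (adjusted p 0.46).

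Of 14 genes for ubiquinone and other electron entry, 2 were higher and 1 lower. Etfb, of the electron transfer flavoprotein, was the most abundant at 72.7 to 119 TPM. Coq7, the hydroxylase of ubiquinone synthesis, had the largest difference and was at 16.2, 22.6 and 12.2 TPM with IgG1, 21.4, 12.1 and 21.8 with anti-PD-1, 6.00, 9.39 and 1.22 with DOX/IgG1, and 12.5, 4.54 and 7.19 with DOX/anti-PD-1. Every doxorubicin tumor except DOX/anti-PD-1 replicate 1 lay below all tumors without doxorubicin. The difference was −1.42 (adjusted p 0.205).

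Of 37 assembly factors and regulators other than the 95 genes, 2 were higher and 0 lower. Atpif1, the inhibitor of the ATP synthase, was the most abundant at 181 to 414 TPM, with a difference of −0.035 (adjusted p 0.968). Foxred1, an assembly factor of complex I, was at 3.33, 10.4 and 18.3 TPM with IgG1, 4.92, 12.7 and 11.4 with anti-PD-1, 20.9, 19.6 and 15.8 with DOX/IgG1, and 20.0, 16.5 and 13.8 with DOX/anti-PD-1. It stood at 13.8 TPM or more in each doxorubicin tumor and above that in 1 other, IgG1 replicate 3, with a difference of 0.90 (adjusted p 0.314).

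Of 18 regulators of mitochondrial biogenesis, 16, or 14 under both other scalings, had a positive difference with doxorubicin and 1 an unadjusted p under 0.05. Ssbp1, which binds mitochondrial DNA, was the most abundant at 54.8 to 111 TPM. Mterf1a, of the mitochondrial transcription termination factors, had the largest difference at −0.57 (adjusted p 0.593). Of 78 mitochondrial ribosome genes, 0 were higher and 1 lower, with Mrpl52 the most abundant at 119 to 365 TPM. The 1 was Mrpl22, at 12.4, 12.0 and 7.34 TPM with IgG1, 19.1, 13.6 and 10.6 with anti-PD-1, 10.6, 1.96 and 0 with DOX/IgG1, and 4.37, 8.31 and 0 with DOX/anti-PD-1, a difference of −1.91 (adjusted p 0.234). It was listed at 0 in 2 doxorubicin tumors. Of 94 cytosolic ribosome genes tested, 2 were higher and 9 lower. Rpl13a was the most abundant at 3767 to 8532 TPM, and the pseudogene Rpl23a-ps3 had the largest difference, 2.20 (adjusted p 0.489).

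Of 15 hypoxia genes, 1 was higher and 1 lower. Aldoa was the most abundant hypoxia gene at 307 to 1227 TPM and Egln1 had the largest difference, 0.54 (adjusted p 0.456).

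Markers of other cells showed how mixed the tumors were. The 14 fibroblast and pericyte markers summed to 668 to 2270 TPM, led by Col1a1 at 132 to 745 TPM. Dcn, the largest difference among them, was at 95.3, 72.9 and 127 TPM with IgG1, 90.9, 98.2 and 93.7 with anti-PD-1, 76.8, 619 and 323 with DOX/IgG1, and 205, 175 and 201 with DOX/anti-PD-1, with a difference of 1.20 (adjusted p 0.235). The 7 endothelial markers summed to 79.3 to 169 TPM, led by Pecam1, and Vwf differed by 0.82 (adjusted p 0.329). The 15 leukocyte markers summed to 139 to 308 TPM, led by Ptprc, with Ly6g listed at 0 in all tumors, and Cd3e differed by 0.92 (adjusted p 0.621). Among epithelial markers, Cldn4 differed by 0.96 (adjusted p 0.21) and Epcam by −0.54 (adjusted p 0.319). Mki67 had the largest difference of the proliferation markers, −0.84 (adjusted p 0.364), Retn of the adipocyte markers, 1.45 (adjusted p 0.401), Tnnt3 of the muscle markers, −1.20 (adjusted p 0.715), and Dio2 of the brown fat markers, 0.88 (adjusted p 0.323).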
